A study of Anopheles gambiae with 18 samples.

Results

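The transcripts described here are 3 peritrophins among the 14197 transcripts of an *Anopheles gambiae* midgut array. They are the peritrophin 1 precursors ENSANGT00000013392 (EN013392) and ENSANGT00000023523 (EN023523) and the peritrophin A type chitin-binding transcript ENSANGT00000026405 (EN026405). They were chosen by identifier, with the male versus female and the cardia versus posterior ratios in view, so the ratios of those assays are given as a description and without a test. The ratios of the single compartments against the whole midgut were not used for the choice and were tested.

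The peritrophic matrix is a sheet of chitin fibrils, proteins and proteoglycans that separates the gut epithelium from the food. Peritrophins are proteins of this sheet, with peritrophin A type domains that bind chitin, and they hold its fibrils together. In adult mosquitoes the matrix is laid down by midgut epithelial cells around a blood meal, while in many other insects and in larvae it is also formed continuously by the cardia, the short valve region between foregut and midgut. Some adult peritrophins are stored in secretory vesicles of the epithelium before a blood meal is taken.

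The series has 18 oligonucleotide arrays, 3 for each of 6 assays, hybridized with midgut RNA of Keele strain adults that were kept on sucrose. Male midguts were set against unfed female midguts. Of unfed females, the cardia, the anterior part, the anterior-posterior part and the posterior-posterior part were each set against the whole midgut, which contains the compartment itself, and the cardia was also set against the posterior midgut. The labels give an age of 4 days on every array but the first anterior one, which gives no age, and no source used here says how many midguts were pooled. The methods describe biological replicas. The first-named sample carried Cy5 and the other carried Cy3 on all arrays, so that the dye and the sample cannot be told apart, and a positive log2 ratio stands for more signal in the first-named sample.

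The ratios were deposited as log2 Cy5/Cy3 without signal values. They were centred here on each array by the median of the 1937 transcripts that the study lists as expressed in its sex assay. This centre lay between -0.19 and 1.31 above the median of all transcripts, so that a typical transcript had a negative centred ratio, down to a median of -0.86 in the anterior-posterior assay. The cardia versus whole arrays stood apart, with 454 to 3222 blank features and a correlation between pairs of arrays, across transcripts, from -0.10 to 0.10. In the other assays that correlation was between 0.098 and 0.64. A transcript was called where its mean changed at least 2-fold and its adjusted p by limma was below 0.05, over all transcripts tested in the assay.

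The label of EN026405 needed a check, since the row of this transcript in the study's cardia versus posterior list carries the text of a glucose dehydrogenase. From within that list on, the text stands 1 row above the transcript it describes. Of 66 transcripts after that point that another list also holds, the text of their own row matched the other list for 1, and the text of the row above matched for 63. The text of the row above EN026405 is that of a chitin-binding peritrophin A. Both precursors carry a peritrophin precursor text in the sex list. These names were not tested against sequence here, and the array has 1 spot each for EN013392 and EN026405 and a pair of spots for EN023523.

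**Figure D1:**
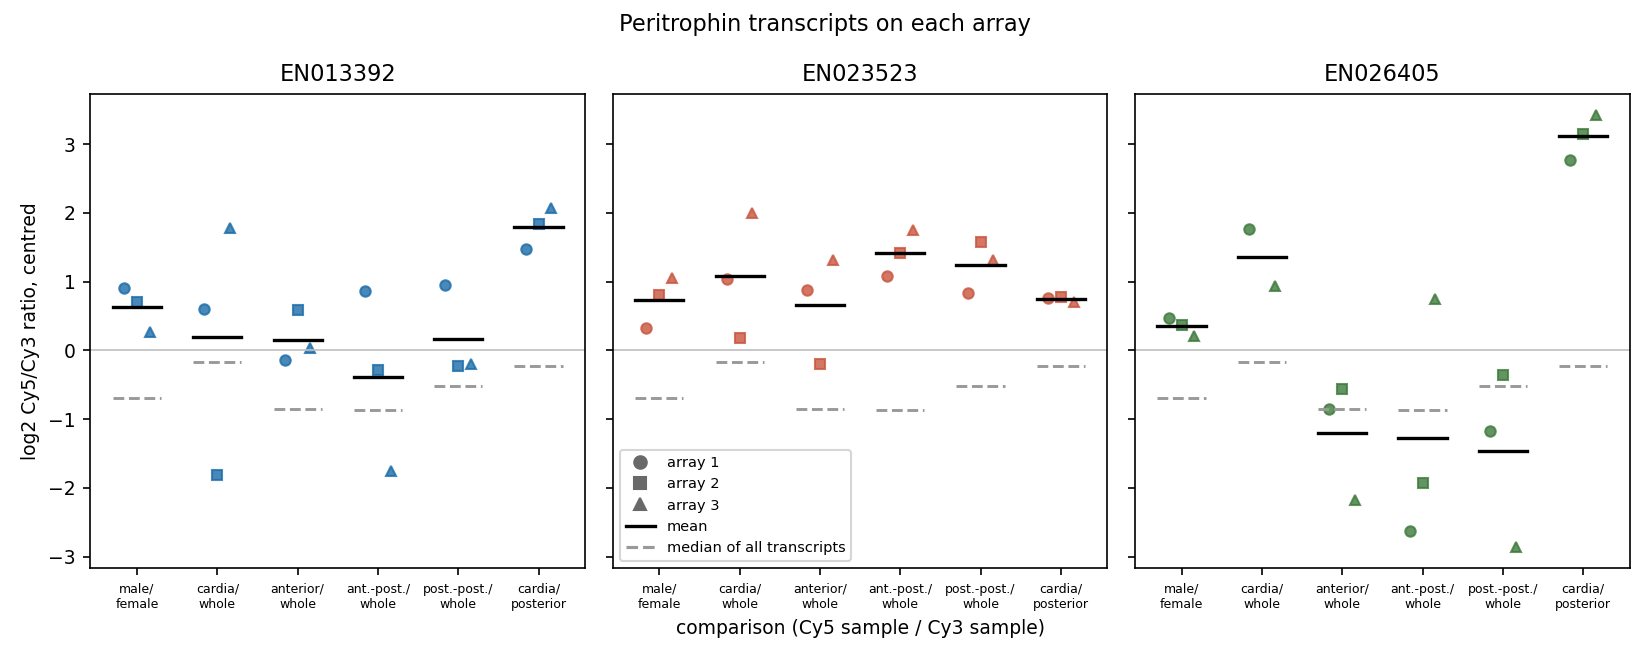
Centred log2 Cy5/Cy3 ratio of each peritrophin on each of the 3 arrays of 6 assays, with the mean as a solid bar and the median of all transcripts as a dashed bar. EN026405 has 2 cardia/whole values, both above 0, and lies below 0 on every anterior and posterior-posterior array, while EN023523 lies above 0 on 11 of the 12 compartment arrays.

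In male midguts set against female ones, all 3 peritrophins were above 0 on every array, a pattern that 5.26% of all transcripts had. The study's text places the precursors on the female side, which is the opposite of the sign of these ratios. The difference was not confined to peritrophins. In the study's validation data, gambicin was slightly below 0 in this assay by array and by real-time PCR, and here its mean was 0.85. Why the deposited ratios differ from the study's own was not tested. EN013392 was at 0.90, 0.71 and 0.27 on the 3 arrays, a mean of 0.63 ± 0.32 (SD, n = 3). EN023523 was at 0.33, 0.81 and 1.05, a mean of 0.73 ± 0.37 (SD, n = 3). EN026405 was the lowest of them, at 0.47, 0.37 and 0.21, a mean of 0.35 ± 0.13 (SD, n = 3). The ranges of the 3 transcripts overlapped. Their means were higher than those of 95.8% to 98.6% of all transcripts, whose median was at -0.70. The transcripts listed as expressed, which set the centre, include both precursors but not EN026405. For the precursors, these shares and the 5.26% therefore do not separate a higher male signal from being on that list. Shares among the listed transcripts were not worked out. Centred on all transcripts instead, the means were 1.30 for EN013392, 1.41 for EN023523 and 1.02 for EN026405.

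Between the cardia and the posterior midgut, the peritrophins separated by size. All 3 were above 0 on every array, as were 9.76% of all transcripts. EN026405 was at 2.77, 3.15 and 3.42, a mean of 3.12 ± 0.33 (SD, n = 3) or 8.68-fold. EN013392 was at 1.47, 1.84 and 2.07, a mean of 1.79 ± 0.30 (SD, n = 3) or 3.47-fold. EN023523 was the lowest and the most even, at 0.77, 0.77 and 0.71, a mean of 0.75 ± 0.03 (SD, n = 3) or 1.68-fold. The ranges of the 3 transcripts did not overlap, and on each array the order was the same. Within an array, EN026405 exceeded EN013392 by 1.30, 1.32 and 1.35, a difference that varied less between arrays than either ratio. Of all transcripts with a mean in this assay, 99.98% had a lower one than EN026405, 99.8% than EN013392 and 97.5% than EN023523. The shares of both precursors have the limit given for the sex assay, since both are on the list that set the centre.

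The tests against the whole midgut called EN023523 in 1 compartment and neither of the other two in any. The members called numbered 0 in the cardia, 0 in the anterior, 1 in the anterior-posterior and 0 in the posterior-posterior part. Of all transcripts tested, 1.41%, 6.08%, 25.3% and 0.0% were called in these assays in the same order. Those shares mix directions unevenly, and the split moved with the centre. In the anterior-posterior part, 172 transcripts were called higher and 3413 lower with the centre used here, and 1098 higher and 58 lower with arrays centred on all transcripts. In the anterior part the counts were 33 higher and 830 lower against 433 higher and 18 lower, and in the cardia they were 61 higher and 134 lower against 192 higher and 247 lower. In a bulk sample, more cells of a type and more RNA per cell cannot be told apart.

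EN023523 was called higher in the anterior-posterior part. It was at 1.08, 1.42 and 1.75 on the 3 arrays, all above 0 and above the median of all transcripts. The mean was 1.42 with a standard error of 0.35 (n = 3, limma, adjusted p = 0.0190), or 2.67-fold. A call in this direction was made for 1.21% of the transcripts tested. It was made for 3.29% of the 3104 transcripts in the study's gene lists, with p adjusted over those alone. EN023523 is on the list that set the centre. Its shares among all transcripts, here and in the other compartments, therefore do not separate a higher signal from being on that list. Centred on all transcripts, the mean was 2.29 (limma, adjusted p = 0.000752), and as deposited it was 0.43 and not called (limma, adjusted p = 0.260). The call was also lost without the first array (1.58, limma, adjusted p = 0.155), without the second array (1.41, limma, adjusted p = 0.143) and with the anterior-posterior arrays fitted alone (1.42, limma, adjusted p = 0.0782). Without the first or without the second array, 0 of 14194 transcripts were called in this assay in either direction. With its arrays fitted alone, 1 transcript was called higher and 380 lower. The loss in these fits is therefore not particular to EN023523.

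In the other compartments the means of EN023523 were above 0, from 0.66 to 1.24, and it was not called. In the posterior-posterior part it was at 0.83, 1.57 and 1.32, a mean of 1.24 with a standard error of 0.35 (n = 3, limma, adjusted p = 0.157). No transcript was called there, while 2651 had an unadjusted p under 0.05. In the cardia it was at 1.04, 0.19 and 2.00, a mean of 1.08 with the same standard error (limma, adjusted p = 0.121). Without the second cardia array, on which the 4 cardia markers were all below 0, the mean was 1.52 and called (limma, adjusted p = 0.0230), and 2.4% of all transcripts were then called higher. In the anterior part it was at 0.88, -0.20 and 1.31, a mean of 0.66 (limma, adjusted p = 0.150), and it was called at 1.45 with arrays centred on all transcripts (limma, adjusted p = 0.0336), a call in a direction that 3.05% of transcripts then had. With that centre it was also called in the posterior-posterior part, at 1.72 (limma, adjusted p = 0.0493), where 0.162% of all transcripts were called higher. Of the 9778 transcripts with a value on all 12 compartment arrays, 193, or 1.97%, were above 0 on 11 or more, as EN023523 was. As deposited, the cardia mean had the other sign, at -0.36.

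The pair of EN023523 spots carried many ratios at or next to 1. The second spot, marked REP on the array, held a deposited ratio of exactly 1 on 4 of the 12 compartment arrays, which were the second and the third anterior and the first and the third anterior-posterior arrays. No other spot of 15495 had more than 3. The first spot held it on 1, the second anterior array, where both spots thus give the same value. On the first posterior-posterior array both spots were at 0.999. Counted within 0.005 of 1, EN023523 had such a ratio on 6 of the 12 arrays, and of 14197 transcripts only EN022242 had as many. On the first anterior-posterior array, 0.368% of all spots were that close to 1. EN013392 and EN026405 had no such ratio on any array.

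A spot at a ratio of 1 takes its centred value from the centre of the array alone. Over the 18 arrays, the centred ratio of EN023523 had an r of -0.62 with the centre that was subtracted, lower than that of 98.8% of the 9607 transcripts with a value on every array. The same r was 0.35 for EN013392 and 0.21 for EN026405 (17 arrays). With ratios within 0.005 of 1 left out, a choice made after seeing the data, EN023523 was still called in the anterior-posterior part, at 1.54 (limma, adjusted p = 0.0195), and in the other compartments it had means from 1.03 to 1.45 and was not called. By its first spot alone it was called at 1.50 (limma, adjusted p = 0.0177) and by its REP spot alone at 1.33 (limma, adjusted p = 0.0260). The signal behind these spots was not analysed here. Whether they lay within the range of the scanner in both channels was therefore not tested, and with it whether a ratio next to 1, and the 2.67-fold mean that includes such ratios, measures the size of the difference.

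**Figure D2:**
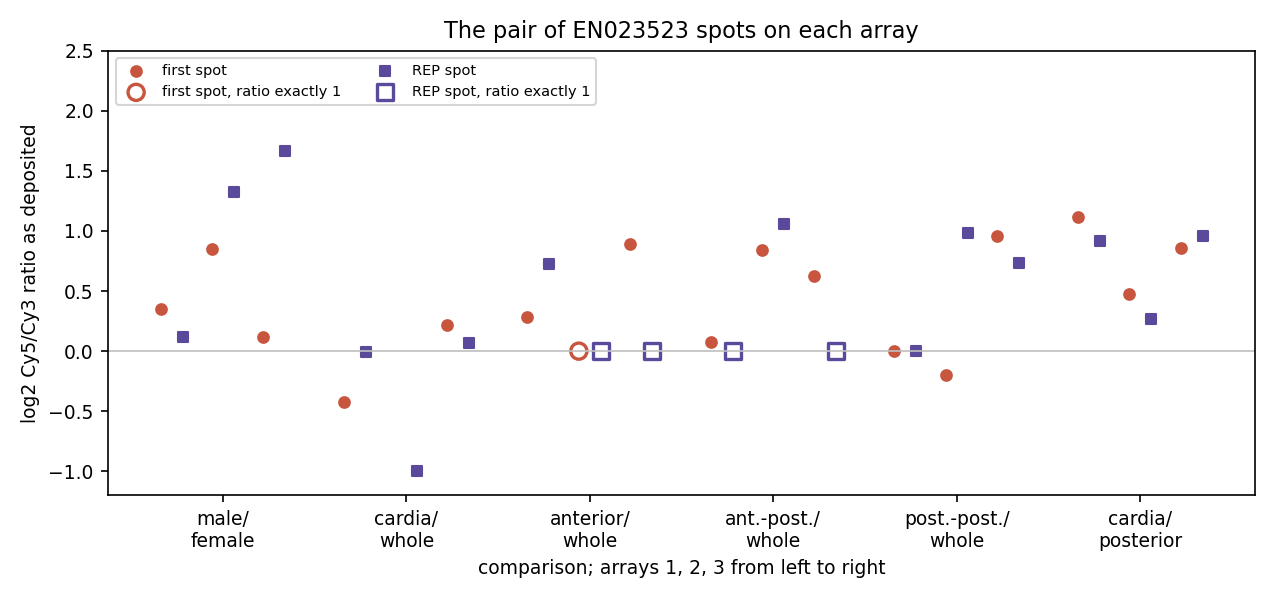
Deposited log2 Cy5/Cy3 ratio, before centring, of both spots of EN023523 on the 18 arrays, with arrays 1 to 3 of an assay from left to right. Open symbols are ratios of exactly 1, which fall on the anterior and anterior-posterior arrays, 4 of them in the REP spot and 1 in the first spot.

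EN026405 had the widest spread of ratios between compartments, and none was called against the whole midgut. In the cardia it was at 1.77 and 0.94 on the first and the third arrays and had no value on the second, a mean of 1.35 with a standard error of 0.65 (n = 2, limma, adjusted p = 0.300), and as deposited the mean was -0.21. In the anterior part it was at -0.85, -0.57 and -2.17, a mean of -1.19 with a standard error of 0.53 (n = 3, limma, adjusted p = 0.102). In the anterior-posterior part it was at -2.62, -1.93 and 0.75, a mean of -1.27 (limma, adjusted p = 0.0733). The third array had the other sign, and without it the mean was -2.27 and called lower (limma, adjusted p = 0.00522), as 44.7% of all transcripts were in that fit and 24.0% with all arrays. In the posterior-posterior part it was at -1.18, -0.36 and -2.85, a mean of -1.46 (limma, adjusted p = 0.204). It was thus below 0 on every array of the anterior and the posterior-posterior part, as were 68.8% and 44.7% of all transcripts. It was called lower in the anterior part with those arrays fitted alone (limma, adjusted p = 0.0216), a fit in which 36.3% of all transcripts were called lower. With array weights it was called lower in the anterior-posterior (-1.77) and the posterior-posterior part (-1.26; limma, adjusted p = 0.00686 and 0.00226), where 43.5% and 10.5% of all transcripts were called lower with those weights.

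Set against the other transcripts of the same assays, the cardia and the posterior-posterior means of EN026405 were the ones near an end of the range. Of all transcripts, 98.0% had a lower mean in the cardia and 2.75% in the posterior-posterior part. In the anterior and the anterior-posterior part these shares were 21.5% and 23.7%. Centred on all transcripts, its means there were -0.41 and -0.39, with SDs of 1.14 and 1.19 (n = 3 each).

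The tests between compartments compared ratios to the whole midgut from separate arrays. For EN026405 they gave the same direction in each pair that held the cardia, without a call. These pairs rest on the same cardia values, so their agreement is not a set of separate observations. EN026405 was also chosen with its cardia versus posterior ratio in view, which compares much the same tissues. The cardia exceeded the anterior part by 2.55 (95% interval 0.79 to 4.31, limma, adjusted p = 0.140), the anterior-posterior part by 2.62 (0.86 to 4.38, limma, adjusted p = 0.0960) and the posterior-posterior part by 2.82 (1.06 to 4.58, limma, adjusted p = 0.197). The intervals are for the single transcript and not adjusted. The cardia values, 0.94 and 1.77, did not overlap those of the anterior or the posterior-posterior part, and they lay above all 3 anterior-posterior values, the highest of which was 0.75. Of the transcripts tested, 0.288%, 1.38% and 0.0649% were called in these pairs. Without the third anterior-posterior array, the cardia exceeded the anterior-posterior part by 3.63 and was called (limma, adjusted p = 0.0151), in a fit that called 11.5% of all transcripts higher in the cardia. With all transcripts as the centre, the differences were 1.87, 1.85 and 2.44. The separate cardia versus posterior arrays gave the 3.12 above.

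For the precursors, the intervals of these differences held 0. EN013392 differed by 0.58 between the cardia and the anterior-posterior part (95% interval -0.95 to 2.11) and by 0.02 between the cardia and the posterior-posterior part (-1.52 to 1.55), against a direct ratio of 1.79. EN023523 differed by -0.34 (-1.39 to 0.71) and -0.16 (-1.21 to 0.89), against 0.75. These pairs rested on the second cardia array and on the centre. Without that array, the differences of EN013392 were 1.58 and 1.02 and those of EN023523 were 0.11 and 0.28, none called. With all transcripts as the centre, they were -0.21 and -0.37 for EN013392 and -1.12 and -0.55 for EN023523. The direct ratios were in view when the transcripts were chosen, and the values are given side by side only. In all 6 pairs of compartments, 0 of the 3 peritrophins were called, as were 0.0% of all transcripts in the 3 pairs without the cardia.

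**Figure D3:**
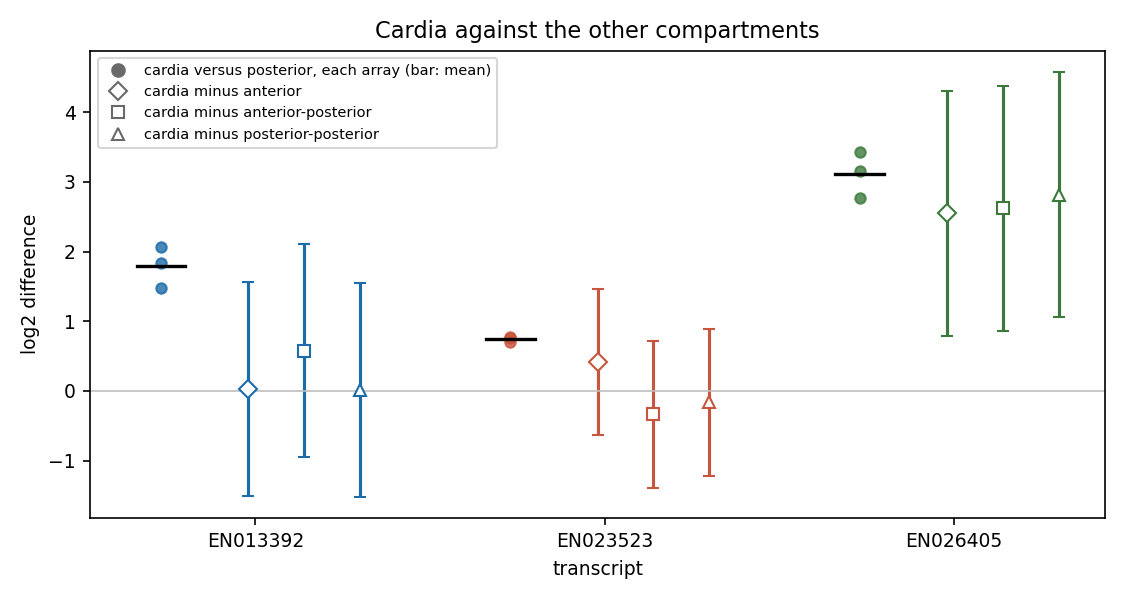
Log2 ratio of cardia to posterior midgut on each array (filled circles, with the mean as a bar) beside the difference of the cardia/whole ratio from the anterior, anterior-posterior and posterior-posterior ratios (open symbols with 95% intervals from limma) for 3 peritrophins. Only the intervals of EN026405, from 0.79 upwards, lie above 0.

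EN013392 was called in no compartment and its arrays disagreed in sign in each. In the cardia it was at 0.60, -1.81 and 1.78, a mean of 0.19 with a standard error of 0.52 (n = 3, limma, adjusted p = 0.891). The second value rests on a deposited ratio of 0.125, and without that array the mean was 1.19 (limma, adjusted p = 0.160). In the anterior-posterior part it fell on both sides of 0, at 0.87, -0.29 and -1.75, a mean of -0.39 (limma, adjusted p = 0.544), and centred on all transcripts the mean was 0.49. In the anterior part it was at -0.14, 0.58 and 0.03 and in the posterior-posterior part at 0.95, -0.23 and -0.20, with means of 0.16 (95% interval -0.92 to 1.24) and 0.17 (-0.91 to 1.26). As deposited, its means in the cardia, the anterior and the posterior-posterior part were negative, at -1.25, -0.19 and -0.65.

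The markers of the compartments moved in part with these values. The 4 cardia markers, the antimicrobial peptides gambicin, a defensin and a pair of cecropins, were all above 0 on the first and the third cardia arrays and on every cardia versus posterior array, and all below 0 on the second cardia array, where EN013392 was at -1.81, EN023523 was at 0.19 and EN026405 was blank. Their median was 1.23, -0.27 and 1.28 on the cardia arrays. In the sex assay, where the 3 peritrophins were above 0 on every array, all 4 were too, with medians of 0.76, 1.03 and 0.57. The study's validation data had gambicin slightly below 0 in that assay by array and by real-time PCR. They had defensin and the cecropin EN011995 above 0 by both. None of the 4 was called in the cardia against the whole midgut. Of the 6 posterior markers, which digest protein, trypsin 3 (1.50 ± 0.45), trypsin 4 (1.39 ± 0.43) and the carboxypeptidase EN021052 (1.45 ± 0.54) were called higher in the anterior-posterior part (SD, n = 3 each), the compartment in which EN023523 was called. The carboxypeptidase EN020553 (0.87), trypsin 7 (0.79) and trypsin 5 (-0.27) were not called there. Trypsin 3, trypsin 4 and the cardia marker EN011995 had equal values on the second anterior (-0.20), first anterior-posterior (1.04) and first posterior-posterior (0.83) arrays. EN021052 and gambicin shared the 0.83. EN023523 was also at -0.20 and 0.83, from ratios at or next to 1. Trypsin 3 had a ratio next to 1 on 3 of the 12 compartment arrays. Whether such ratios measure the size of a difference was not tested for these markers either. On the 3 cardia versus posterior arrays, 5, 1 and 1 of the 6 were above 0, with medians of 0.09, -0.44 and -0.64. Trypsin 3 was above 0, on the side of the cardia, on each of them (0.06, 0.40 and 0.55). All 6 were also above 0 on the first cardia array, so they did not mark posterior tissue on every array. The part of these markers in the values of the peritrophins was not tested.

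Among the 22 transcripts with a peritrophin or chitin-binding text, the 3 peritrophins held different places. EN026405 had the highest mean of the 22 in the cardia versus posterior assay and EN013392 was at place 3, while in the posterior-posterior part EN023523 had the highest and EN026405 was at place 21. In the cardia against the whole, EN026405 and EN023523 were at places 2 and 3. The list was taken from the study's own list of genes, which was chosen in part on these arrays. Of its other 19 transcripts, 2 were called higher and 3 lower in the anterior-posterior part, where 1.21% and 24.0% of all transcripts were, and 1 lower in the anterior part, where 5.85% were. The medians were -0.66 and -0.29 for these 19 and -0.86 and -0.85 for all transcripts. Higher were EN020485, at 1.22, 1.31 and 1.99, and EN018413, at 1.08, 0.94 and 1.57. Lower were EN027052 (-1.55 ± 1.23), EN020388 (-1.27 ± 0.85) and EN020519 (-1.25 ± 0.59), and EN020519 was also the one in the anterior part (-1.31 ± 0.11; SD, n = 3 each). Centred on all transcripts, the means of the lower ones were -0.67, -0.39, -0.37 and -0.52, and those of the higher ones were 2.38 and 2.08. The higher ones are on the list that set the centre and the lower ones are not. The direction of these calls is therefore not separated from being on that list. None of the 19 was called in the cardia or the posterior-posterior part against the whole. Between the cardia and the posterior midgut, EN029111 was called higher at 1.96 ± 0.14 (SD, n = 3), as were 0.225% of all transcripts. The list was chosen in part on this assay, so this call is not an independent test and is given as a description.

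**Figure D4:**
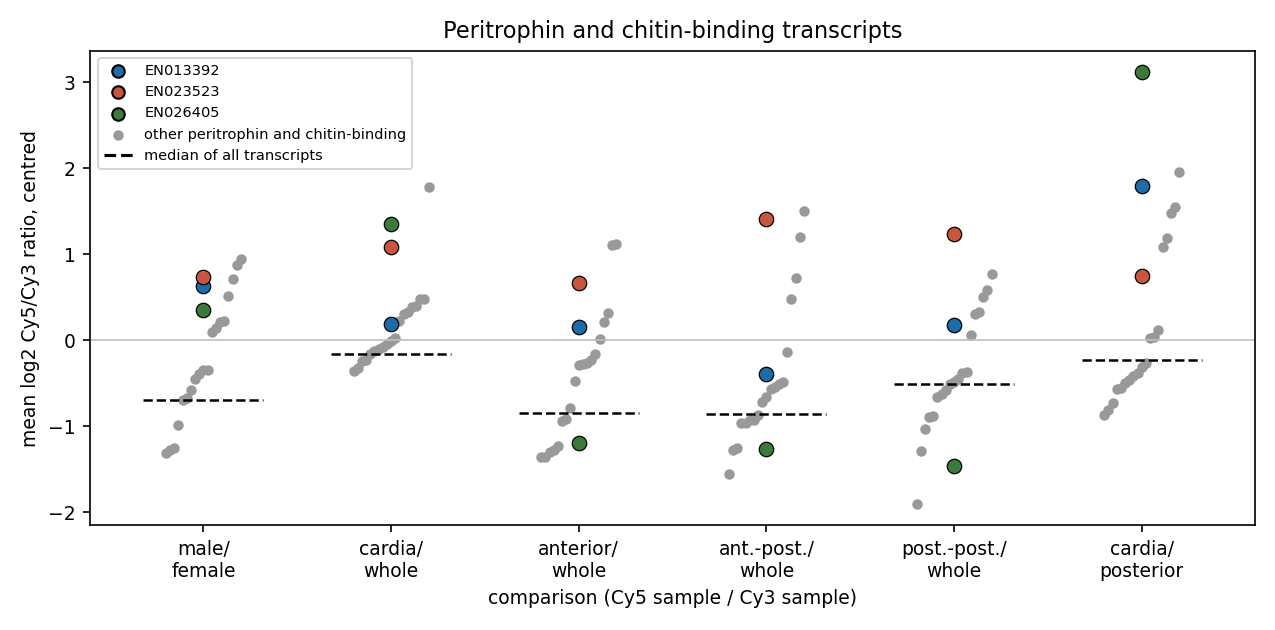
Mean centred log2 Cy5/Cy3 ratio of the 22 peritrophin and chitin-binding transcripts in each assay, with the 3 peritrophins in colour, the others in grey in order of size, and the median of all transcripts as a dashed bar. EN026405 lies at 3.12 above the others in cardia/posterior and at -1.46 near the bottom in posterior-posterior/whole.

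Enzymes that make or break down chitin were measured by 8 transcripts. In the anterior-posterior part, the beta-hexosaminidase EN019251, which trims chitin fragments, was called higher at 1.25 ± 0.03 (SD, n = 3) and another, EN016209, was called lower at -1.19 ± 0.71. EN016209 was also called lower in the anterior part, at -1.54 ± 0.59. Of all transcripts, 1.21% were called higher and 24.0% lower in the anterior-posterior part, and 5.85% lower in the anterior part. With all transcripts as the centre, EN019251 was at 2.13, and EN016209 was at -0.31 and -0.75, both under 2-fold. In the sex assay the chitinase EN021644 (-1.51 ± 0.68) and the glucosamine-fructose-6-phosphate aminotransferase EN018425 (-1.15 ± 0.55), the first enzyme of the pathway to chitin's sugar units, were called lower (limma, adjusted p = 0.0451 and 0.0461), as were 7.17% of all transcripts, and centred on all transcripts these means were -0.84 and -0.48. The other chitinase, EN006959, was at 1.00, 1.16 and 0.50 there, a mean of 0.89, and was not called. Of the 8 transcripts, 2 had a mean above 0 in that assay and 6 below. Without the second or the third sex array, or with the replicate block, 0 transcripts of the array were called in it. Of 7 transcripts with the glucose dehydrogenase text, only EN002989 was called in these assays, lower in the anterior-posterior part at -1.39 ± 0.82, and with all transcripts as the centre it was at -0.51. EN016209, EN021644, EN018425 and EN002989, all called lower, are not on the list that set the centre, while EN019251, called higher, is. The direction of these calls is not separated from being on that list either.

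Over the arrays, Pearson's r was -0.10 between the precursors (18 arrays), -0.18 between EN023523 and EN026405 and 0.53 between EN013392 and EN026405 (17 arrays each), and the last was 0.13 without the cardia versus posterior arrays. These points share the centre of each array and its Cy3 RNA. That RNA was from whole female midgut, or from posterior midgut on the cardia versus posterior arrays. The values describe these arrays only.

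The transcripts most like each peritrophin over the arrays differed too, among 9606 to 9607 compared. For EN013392 they were the regucalcin EN010332 (r = 0.91), EN011142 and EN012189 (both 0.88), gambicin (0.86) and the chitin-binding peritrophin EN029111 (0.83). EN029111 was at 1.80, 2.01 and 2.05 between the cardia and the posterior midgut, above EN013392 on the first and second arrays and below it on the third. For EN023523 they were EN022242 (r = 0.89), trypsin 3 (0.88), EN024580 (0.87), EN025664 (0.86) and the ribosomal protein L8 EN010416 (0.85). All 5 of these also had a ratio within 0.005 of 1 on the second anterior array, 4 on the first posterior-posterior and 3 on the first anterior-posterior array. For EN026405, over 17 arrays, they were EN011722 (r = 0.92), prophenoloxidase 1 (EN016955, 0.91), EN025894 (0.91), the serine protease EN014152 (0.90) and EN020383 (0.90).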

How the data were processed

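The authors deposited log2 Cy5/Cy3 ratios per spot, read from scans with GenePix Pro. The methods name a signal cut-off of 100 and LOWESS, but the array medians were not at 0 (-2.27 to 0.14). The value 16.6096 (120 spots) was treated as missing. Spots were averaged per transcript (15495 features, 14197 transcripts, 1156 with more than 1 spot). Arrays were centred on the study's sex list, and limma 3.58.1 in R 4.3.3 fitted all 18 arrays with a mean per assay (prior degrees of freedom 7.04), adjusting by Benjamini-Hochberg over transcripts with values on at least 2 arrays. The number of arrays limits the precision. Python 3.11.15, pandas 2.3.3, NumPy 2.4.6, SciPy 1.17.1 and matplotlib 3.10.9 made the other tables.

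The members and lists were chosen with earlier results of these data known. Lists were taken by words in the homology text of the study's gene list, with text moved down 1 row where it was offset. Related transcripts were named where called, at most 5 per direction and assay, and the 5 most like each member by Pearson's r. Alternatives were other centrings, spread, filter, spot summary, array weights, the replicate block, arrays left out and the methods' t-test. In a simulation, 200 transcripts were given a log2 change of 2. Of these, 60.5% were recovered in the cardia, 68.5% in the anterior, 62.5% in the anterior-posterior and 62.5% in the posterior-posterior assay. Recovery was 11.5% to 21.0% in the pairs simulated. The cardia against the anterior-posterior and the posterior-posterior part was not among these pairs. The cardia arrays had a median SD of 0.91, against 0.38 to 0.77 in the other assays. Whether recovery in the cardia would be as high with that spread was not tested.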

Additional observations from a re-analysis of the deposited data

Results flagged for a closer look

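EN026405 was above 0 on both cardia arrays with a value and below 0 on all 3 anterior and all 3 posterior-posterior arrays. The difference was 2.55 between the cardia and the anterior part and 2.82 between the cardia and the posterior-posterior part. Both were tested, on the same cardia values, and neither passed (limma, adjusted p = 0.140 and 0.197). With 1 array left out, the differences lay between 2.06 and 2.96 and between 2.12 and 3.37.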

How the results depend on the processing

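Members called moved from 0 in the cardia, 0 in the anterior, 1 in the anterior-posterior and 0 in the posterior-posterior part to 1, 1, 2 and 1 without centring. Of all transcripts, 79.3%, 55.8%, 82.9% and 71.5% were called in that setting, nearly all of them lower. Centred on all transcripts, 1 was called in the anterior and 1 in the posterior-posterior part, as were 3.18% and 0.176% of all transcripts. With the arrays of an assay alone, 1 was called in the anterior and 0 in the anterior-posterior part, where 36.9% and 2.68% of all transcripts were. With array weights, 2 and 1 were called in the anterior-posterior and posterior-posterior parts, where 44.6% and 11.7% of all transcripts were. The methods' t-test, unadjusted, called 1 in the posterior-posterior part and 1 between cardia and anterior, and 2.9% and 9.52% of all transcripts. After Benjamini-Hochberg it called 0 members and 0.0% of all transcripts in the anterior-posterior part. With 1 array left out, 0 to 1 were called in the cardia, 0 to 2 in the anterior-posterior part and 0 to 1 between them. Without the second cardia array, 8.23% of all transcripts were called in the cardia. Without the third anterior-posterior array, 45.9% were called in that part and 11.8% between it and the cardia. Without the first or without the second, 0.0% were called in that part. The mean of EN013392 changed sign without centring, at -1.25 (cardia), -0.19 (anterior) and -0.65 (posterior-posterior), with weights at -0.49 (cardia) and -0.023 (anterior), and centred on all transcripts at 0.49 (anterior-posterior). With 1 array left out it ranged from -0.61 to 1.19, -0.053 to 0.31, -1.02 to 0.29 and -0.21 to 0.38 in the 4 compartments. In the cardia, EN023523 was at -0.36 and EN026405 at -0.21 without centring. The sex ratios were 1.30, 1.41 and 1.02 and the cardia versus posterior ratio of EN023523 0.96 centred on all transcripts, and the latter was 0.80 and 0.70 by its single spots. The cause was not tested. Of the settings of EN026405's cardia pairs, 2 added a call and 55 did not. Treating ratios at or near 1 as missing and using single spots were chosen after seeing the data.

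Same-numbered arrays deviated with r from -0.36 to 0.28 (median -0.04), over 0.1 in 4 of 45 pairs. Of pairs with different numbers, 21 of 90 were over 0.1. Whether the numbers pair the samples cannot be decided from these values, since each assay has few arrays and they deviate from their own mean. With the replicate block, EN023523 stayed called in the anterior-posterior part (limma, adjusted p = 0.0285) and no call of a member changed, while over all transcripts 20, 0, 2629 and 0 were called in the 4 compartments, against 195, 863, 3585 and 0 without it and 439, 451, 1156 and 25 centred on all transcripts. Without intensities, signal over background is unknown.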

Other observations

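EN026404, the identifier next to EN026405 and with the same re-aligned homology text, was chosen after its values were seen. It had the lowest mean of the 22 peritrophin and chitin-binding transcripts in the cardia versus posterior assay, where EN026405 had the highest, at -1.19, -0.82 and -0.61 (mean -0.87). It was also the lowest in the posterior-posterior part, at -0.41, -2.52 and -2.78 (mean -1.90, limma, adjusted p = 0.156), next to EN026405 at -1.46. In the sex assay it was at -0.98, -1.22 and -1.74 (mean -1.31, limma, adjusted p = 0.0745), where EN026405 was above 0 on every array.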
